A study of Rattus norvegicus with 8 samples.

Results

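MiR-326 is a microRNA (miRNA) reported to act on the dopamine D2 receptor transcript, and both arms of its hairpin, rno-miR-326-3p and rno-miR-326-5p (rno for rat, left out from here on), were followed here in the rat striatum. They were chosen by name, from a list of 3 mature miRNAs reported to regulate dopamine receptor transcripts, and made up 2 of the 752 mature miRNAs counted. The remaining name on the list, rno-miR-504, reported for the D1 receptor, was not analysed here.

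The libraries came from wild-type male Sprague-Dawley rats, 4 that self-administered saline and 4 that self-administered methamphetamine (METH), a psychostimulant that raises extracellular dopamine. All 8 rats were trained to press a lever for food and carried a jugular catheter. The saline rats went through the same procedures as the METH rats, with saline in place of METH. Rats with stable lever pressing were selected, and each gave 1 small RNA library of the striatum. More METH rats than saline rats had been started, so a smaller part of the METH group was kept, and the groups also differed in this selection. The ages of the rats are not given in the sources used here. In such bulk tissue, fewer cells of a type and less RNA per cell cannot be told apart.

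A mature miRNA guides a silencing complex to transcripts that pair with its seed, bases 2 to 8 from the 5′ end, and usually lowers their translation or stability. Each hairpin precursor can yield a mature strand from either side, and as a rule one strand is kept and the other is degraded. The striatum is the main target of dopamine neurons, and its projection neurons carry mostly D1 receptors, which stimulate cAMP production, or mostly D2 receptors, which inhibit it. Besides D2, miR-326 is known from work on Notch and hedgehog signalling in brain tumours and from T cell differentiation.

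The mature sequences are given first because the seed decides which other miRNA can be read together with miR-326-3p. They are RefSeq sequences on the rat assembly GRCr8, written 5′ to 3′ with the seed in capitals.
miR-326-3p: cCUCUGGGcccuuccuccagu
miR-326-5p: gGGGGCAGggccuuugugaa
miR-330-5p: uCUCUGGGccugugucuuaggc
MiR-330-5p, from another hairpin, carried the seed of miR-326-3p, and the match ran from base 2 to base 10. Beyond that run the sequences diverged, with 12 of 21 positions identical in all. No other mature miRNA of the reference shared this seed, and none shared the seed of miR-326-5p. The closest mature sequence to miR-326-3p among 692 others, miR-331-3p, was 8 single-base edits away, and the closest to miR-326-5p were 7 edits away.

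Mir326 lies on the plus strand of GRCr8 at chr1:163266165-163266259, within the span of Arrb1 (chr1:163249654-163321711), which encodes beta-arrestin 1, an adaptor that binds activated G protein-coupled receptors. Mir330 lies elsewhere on the same chromosome, at chr1:87961207-87961303, within Eml2. The reads had been aligned to rn6, so these positions serve only to place the genes. The hairpin of miR-326 is shown with both mature arms in capitals, the 5p arm first, because the balance of these arms is one of the measures below.
Mir326 hairpin: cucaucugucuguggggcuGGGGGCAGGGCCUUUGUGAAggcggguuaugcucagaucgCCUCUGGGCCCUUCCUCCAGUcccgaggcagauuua
In the structure predicted with RNAfold, 13 bases of the 5p arm paired with the 3p arm.

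Library totals ranged from 12929302 counts in METH rat 1 to 27632443 counts in saline rat 3. METH rat 4 stood apart from the rest, at -21.5 on the first principal component against -2.83 to 7.29 in the other libraries. Its summed erythrocyte markers (3 of the 4 fixed names counted) reached 2817 CPM (counts scaled to library size with TMM factors), against 342 to 648 CPM in the other METH rats and 403 to 644 CPM in the saline rats. Its 4 choroid plexus markers summed to 7124 CPM, against 2893 to 2914 CPM and 2784 to 3571 CPM. Its 3 oligodendrocyte markers summed to 4492 CPM, against 2334 to 4052 CPM in the other METH rats and 2897 to 3191 CPM in saline rats. Its 3 microglia and leukocyte markers summed to 681 CPM, against 1234 to 2057 CPM and 1060 to 2072 CPM. That last sum was almost only miR-150-5p, with a mean over all rats of 1361 CPM. MiR-223-3p averaged 4.87 CPM and miR-142-5p 2.53 CPM. The choroid plexus sum was mostly miR-204-5p, with a mean of 3404 CPM. In the erythrocyte sum, miR-144-3p and miR-144-5p averaged 3.27 and 0.517 CPM. Such sums do not show how the scarcer markers differed between rats. As a sum, the 3 neuron markers were abundant in every library, at 247644 to 448773 CPM in saline rats and 290850 to 436841 CPM in METH rats. In METH rat 4 the sum was 312363 CPM. Of this, miR-9a-5p made up 204524 CPM, its highest level in any rat, so the sum does not show the level of the other neuron markers. The 3 hindbrain and spinal cord markers stayed between 6.52 and 65.4 CPM over all rats, and no counted marker was at 0 in all libraries. The part of these markers in the results below was not tested, and results in which METH rat 4 stands apart are also given without it.

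MiR-326-3p, the arm with the D2 receptor reports, was a moderately abundant striatal miRNA. It ranked 147th of 507 tested miRNAs by mean CPM, at 207 CPM over all rats, where the median miRNA was at 42.6 CPM. It took between 0.00757% and 0.0300% of all counts in a library. Its neighbours in this order were miR-146b-5p, at 208 CPM, and miR-381-3p, at 194 CPM, and both lay well within the spread of miR-326-3p between rats.

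In saline rats 1 to 4, miR-326-3p was at 183, 212, 271 and 306 CPM, from 4089, 4933, 7435 and 7834 counts. In METH rats 1 to 4 it was at 188, 208, 186 and 98.8 CPM, from 2734, 4138, 4603 and 1645 counts. METH rats 1 to 3 lay within the saline range, near its lower end, and METH rat 4 was below every saline rat, so the groups overlapped. Counting error was small beside this spread, with a 95% Poisson interval of 94.1 to 104 CPM for METH rat 4.

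MiR-326-3p averaged 243 ± 55.8 CPM in saline rats against 170 ± 48.6 CPM in METH rats (mean ± SD, n = 4 each). The log2 fold change was -0.51 ± 0.29 (SE), which corresponds to 0.700 of the saline level, with a 95% interval from -1.15 to 0.12 on the log2 scale. This difference did not pass the threshold in the quasi-likelihood test of edgeR (unadjusted p = 0.102, adjusted p = 0.818), nor in a two-sided exact permutation test of the CPM values (p = 0.143). Of the 507 miRNAs, 56 had a smaller p, and 10.5% had a log2 fold change at or below this value. Without METH rat 4, the log2 fold change was -0.32 ± 0.22 (SE; edgeR, adjusted p = 0.998).

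**Figure D1:**
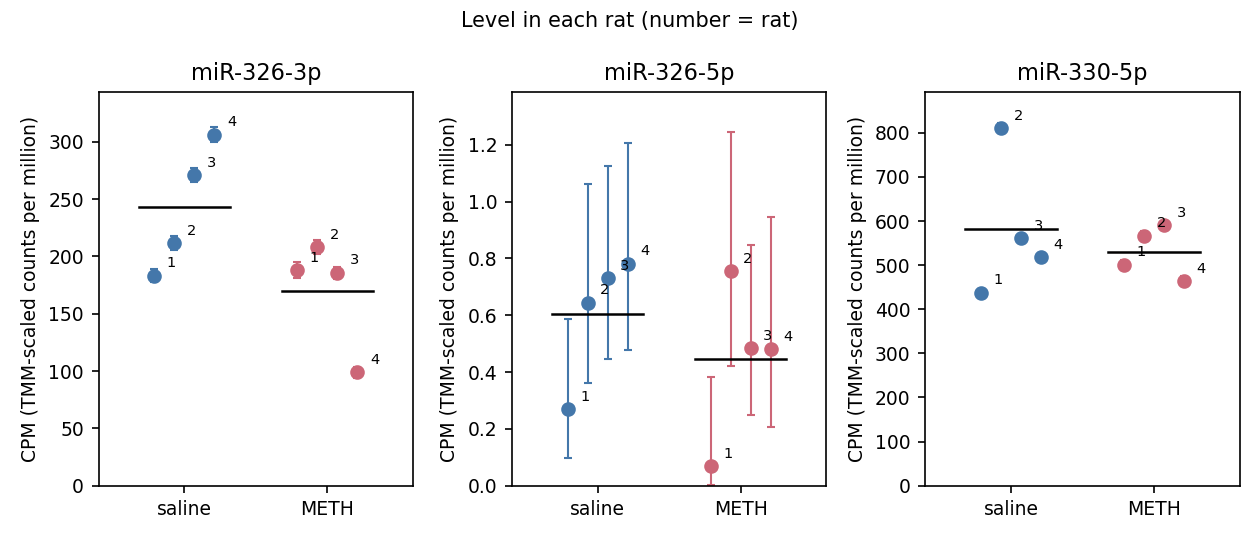
Level of miR-326-3p, miR-326-5p and miR-330-5p in each rat, in CPM after TMM scaling, for the saline and METH groups (n = 4 each). Points are rats with their number, bars are 95% Poisson intervals of the counts and black lines are group means; METH rat 4 is below all other rats for miR-326-3p, at 98.8 CPM, while the groups overlap in each panel.

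MiR-326-5p, the other arm, was close to the detection limit. Saline rats 1 to 4 had 6, 15, 20 and 20 counts of it, or 0.269, 0.644, 0.729 and 0.782 CPM. METH rats 1 to 4 had 1, 15, 12 and 8 counts, or 0.0687, 0.755, 0.484 and 0.480 CPM. The highest METH rat was above 3 of the 4 saline rats, and the lowest 2 rats, METH rat 1 and saline rat 1, belonged to different groups. The single count in METH rat 1 has a 95% Poisson interval of 0.0253 to 5.57 counts. This arm ranked 502nd of the 507 tested miRNAs.

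Group means of miR-326-5p were 0.606 ± 0.232 CPM in saline rats against 0.447 ± 0.283 CPM in METH rats (mean ± SD, n = 4 each). The log2 fold change was -0.40 ± 0.53 (SE), with a 95% interval from -1.59 to 0.78 (edgeR, adjusted p = 0.929), and without METH rat 1, the library with 1 count, it was -0.09, while without METH rat 2 it was -0.83. The exact permutation test gave p = 0.429. The interval reached from lower to higher levels in METH rats, and a difference in miR-326-5p was not detectable with these counts and this spread between rats.

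Of the 2 arms, 0 had an adjusted p under 0.05, where the share over all 507 miRNAs was 0%. At an unadjusted p under 0.05 the count was also 0 of 2, against 5.52% (28 miRNAs) over all tested, of which 2.76% were lower and 2.76% higher in METH rats. The exact test of edgeR and the Wald test of DESeq2 called 6 and 8 miRNAs, and neither arm of miR-326 was among them. Neither arm differed by 1.5-fold or more, a size that 8.48% of miRNAs reached with METH lower and 8.28% with METH higher. Neither arm had groups that did not overlap, which was the case for 1.38% of miRNAs with METH lower and 1.78% with METH higher. Both arms had negative log2 fold changes, as did 52.7% of all miRNAs.

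**Figure D2:**
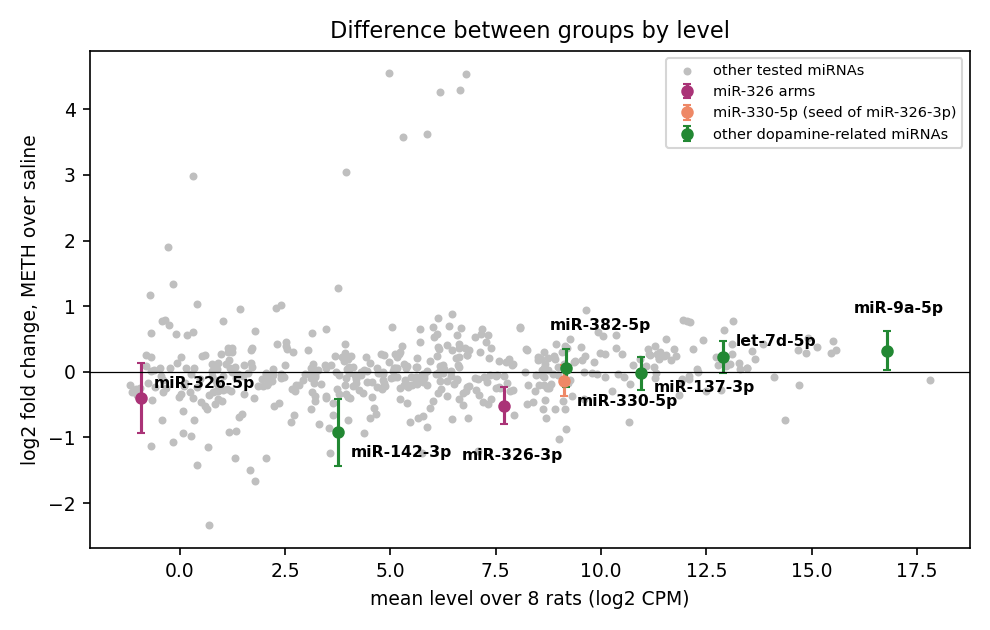
Log2 fold change of METH over saline against the mean level over 8 rats (log2 CPM) for the 507 tested miRNAs, with SE bars on the named ones. Both arms of miR-326 lie below 0, at -0.51 for the 3p arm and -0.40 for the 5p arm, inside the cloud of other miRNAs.

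The imbalance of the arms was large and present in every rat. For each count of the 5p arm there were between 206 counts of the 3p arm, in METH rat 4, and 2734 counts, in METH rat 1. The 5p arm therefore made up 0.0366% of miR-326 counts in METH rat 1 (exact Clopper-Pearson 95% interval 0.000926 to 0.204%) and 0.484% in METH rat 4 (0.209 to 0.951%), the lowest and the highest shares. Saline rats lay between them, from 0.147% in saline rat 1 to 0.303% in saline rat 2.

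Expressed as log2 of 3p over 5p CPM, with a prior count of 2, the arm ratio was 8.50 ± 0.35 in saline rats against 8.48 ± 1.203 in METH rats (mean ± SD, n = 4 each). The difference of -0.02 was smaller than the spread between rats (exact permutation test, p = 0.971), and its sign changed with the prior count and with the rats included. In METH rats 1 to 4 the ratio was 10.2, 7.94, 8.33 and 7.43, so METH rats held both the highest and the lowest values. Without METH rat 1, whose ratio rests on 1 count, the difference was -0.59 (exact permutation test, p = 0.114), and without METH rat 4, which had the lowest ratio, it was 0.33 (exact permutation test, p = 0.771).

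Among 174 precursors with both arms tested, the log2 ratio of mean levels was 8.62 for miR-326, against a median absolute ratio of 3.87. It ranked 23rd by the size of the imbalance. Precursors with an arm too low to be tested were left out, so stronger imbalances may be missing from this ranking. The 3p arm was the higher in 82 of the 174 precursors, and 9 of these had a larger 3p excess than miR-326. The hairpin of its seed partner was closer to balance, with a log2 3p over 5p ratio of -0.73 for miR-330.

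**Figure D3:**
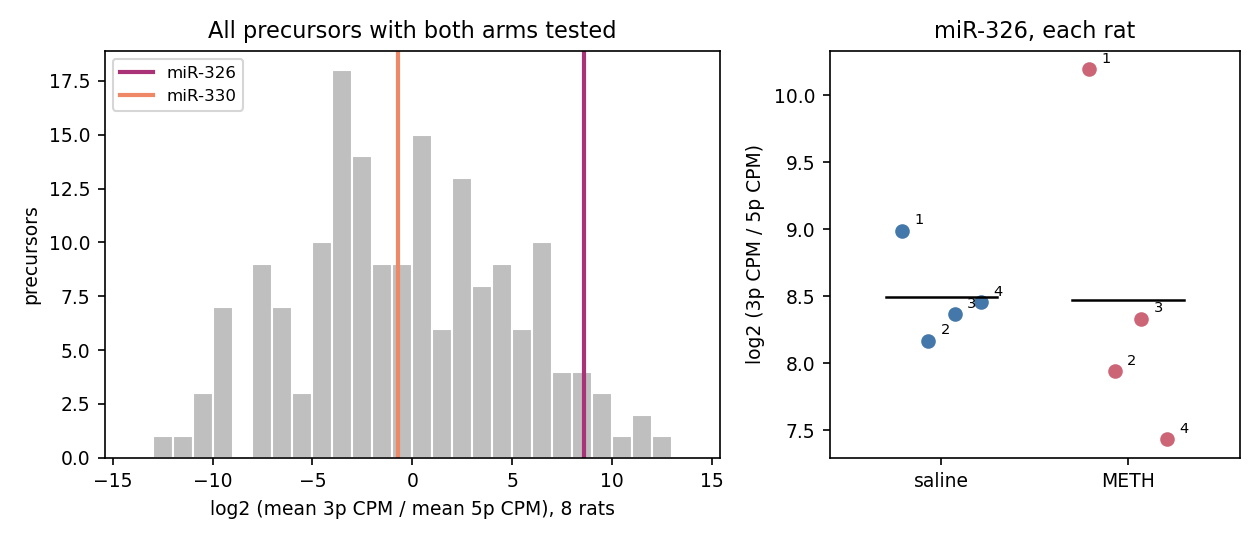
Left, histogram of the log2 ratio of 3p to 5p mean CPM for 174 precursors, with miR-326 at 8.62 and miR-330 at -0.73 marked by lines. Right, the same ratio for miR-326 in each rat, from per-rat log2 CPM, with black lines at the group means of 8.50 and 8.48.

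Across the 8 rats, log2 CPM of the 2 arms had a Pearson r of 0.32 (exact permutation test, p = 0.387) and a Spearman rho of 0.76 (exact permutation test, p = 0.0368), the only pair of members and so without adjustment. METH rat 1 was far below the other rats for the 5p arm and METH rat 4 for the 3p arm. Without METH rat 4 and saline rat 4, the rats farthest from the median of miR-326-3p, r was 0.59 (n = 6, exact permutation test, p = 0.203). Leaving out 1 rat at a time, r ranged from 0.19 without saline rat 4 to 0.62 without METH rat 4, so its size rests on single rats. No coefficient was computed within a group, since each held 4 rats. The saline rats had the same order for both arms, from rat 1 as the lowest to rat 4 as the highest, and the METH rats did not. Saline rats 3 and 4 had 20 counts each of the 5p arm, so their order in that arm came from the scaling alone. With 1 to 20 counts of the 5p arm per library, the relation of the 2 arms is imprecise.

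MiR-330-5p, which shares the miR-326-3p seed, was the more abundant of the pair in all 8 rats. In saline rats 1 to 4 it was at 438, 811, 561 and 518 CPM. In METH rats 1 to 4 it was at 501, 567, 590 and 464 CPM. All METH rats lay within the saline range, whose upper end was set by saline rat 2. The means were 582 ± 161 CPM in saline rats against 531 ± 58.3 CPM in METH rats (mean ± SD, n = 4 each), a log2 fold change of -0.13 ± 0.23 (SE; edgeR, adjusted p = 0.959). Its sign changed without saline rat 2. The coefficient of variation over the 8 rats was 20.7% for miR-330-5p, 30.1% for miR-326-3p and 48.3% for miR-326-5p, where the median over tested miRNAs was 32.2%. Without METH rat 4 the coefficients of miR-330-5p and miR-326-3p were close, at 20.7% and 21.6%, with 51.4% for miR-326-5p and a median of 23.9%.

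Summed over both miRNAs with this seed, the level was 825 ± 164 CPM in saline rats against 701 ± 101 CPM in METH rats (mean ± SD, n = 4 each). Saline rats 1 to 4 were at 621, 1022, 832 and 825 CPM, and METH rats 1 to 4 at 689, 775, 776 and 563 CPM. Only saline rat 1 overlapped the METH range, and the difference did not exceed the spread between rats (exact permutation test, p = 0.286). Without saline rat 1, the difference was -170 CPM, with an exact permutation p of 0.0286, the smallest that 7 rats allow, while without saline rat 2 it was -48.6 CPM (exact permutation test, p = 0.514). Without METH rat 4, the lowest of the 8 rats in this sum, it was -73.1 CPM (exact permutation test, p = 0.400).

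The contribution of miR-326-3p to this seed group was compared after its values had been seen. Its share of the seed group level was 30.0 ± 6.94% in saline rats against 23.9 ± 4.49% in METH rats (mean ± SD, n = 4 each). The lowest shares were 17.5% in METH rat 4 and 20.7% in saline rat 2, and the highest was 37.1% in saline rat 4. On the log2 scale, the ratio of miR-326-3p to miR-330-5p was lower by 0.44 in the METH group, at -1.69 ± 0.38 against -1.25 ± 0.50 (mean ± SD, n = 4 each), and the exact permutation test gave p = 0.229. Without saline rat 2 the difference was -0.67, with an exact permutation p of 0.0286, again the smallest that 7 rats allow, and without METH rat 4 it was -0.26 (exact permutation test, p = 0.429).

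The miRNAs whose profile over the 8 rats was most like that of miR-326-3p were miR-324-3p, miR-106b-3p and miR-667-5p. Likeness was the root mean square difference of log2 CPM after each miRNA was centred on its own mean, and it was 0.13, 0.13 and 0.18, where miR-326-3p itself had an SD of 0.49 over rats. All of them had their lowest level in METH rat 4, at 115, 4.50 and 0.841 CPM, against at least 199, 8.72 and 1.61 CPM in the other rats. METH rat 4 was the lowest of the 8 rats for 176 of the tested miRNAs, or 34.7%. The log2 fold change of miR-324-3p was -0.65 ± 0.27 (SE; edgeR, unadjusted p = 0.0390, adjusted p = 0.818). For miR-106b-3p and miR-667-5p the log2 fold changes were -0.37 and -0.41, with the same adjusted p. Without METH rat 4, the values of these 3 miRNAs in the same order were -0.46, -0.17 and -0.19, with edgeR adjusted p-values from 0.956 to 0.998.

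For miR-326-5p the nearest profiles were miR-6315, miR-300-3p and miR-25-5p, at 0.42, 0.45 and 0.45. The SD of miR-326-5p itself over rats was 0.84, and its low counts limit this measure. Its neighbours by level were miR-219b, at 0.574 CPM, and miR-758-5p, at 0.519 CPM, beside 0.526 CPM for miR-326-5p. The levels of both neighbours lay within the spread of miR-326-5p between rats, and they were not compared with it by a test.

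Other miRNAs reported to act on dopamine receptor or transporter transcripts were examined as a list of 6 names, of which 5 were tested and miR-491-5p was not analysed here. Of these 5, 0 had an adjusted p under 0.05 in either direction and 0 had an unadjusted p under 0.05, against 5.52% of all miRNAs. The lowest of their adjusted p-values in edgeR was 0.818 and the highest 0.985. The median log2 fold change of the list was 0.06, and that of all tested miRNAs was -0.02.

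MiR-9a-5p, a neuronal miRNA that like miR-326 is reported for the D2 receptor, was far more abundant. It ranked 2nd in the table, at 101072 ± 8960 CPM in saline rats against 126193 ± 53926 CPM in METH rats (mean ± SD, n = 4 each). METH rat 4 was the highest, at 204524 CPM, where it was the lowest for miR-326-3p, and the other METH rats lay at 82989 to 115872 CPM. The log2 fold change was 0.32 ± 0.30 (SE) with all rats and -0.0042 without METH rat 4.

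Among the miRNAs reported for the D1 receptor, miR-142-3p, a miRNA of blood-derived cells, was at 17.6 ± 9.48 CPM in saline rats against 9.32 ± 4.62 CPM in METH rats (mean ± SD, n = 4 each). Its log2 fold change was -0.92 ± 0.50 (SE; edgeR, adjusted p = 0.818). Saline rats spanned 5.02 to 26.9 CPM and METH rats 5.81 to 16.0 CPM, so that the METH range lay inside the saline range. MiR-382-5p is a miRNA of the imprinted Dlk1-Dio3 locus. It was at 563 ± 112 CPM in saline rats against 588 ± 225 CPM in METH rats (mean ± SD, n = 4 each). Its log2 fold change was 0.06 ± 0.29 (SE). The sign turned negative with library totals as the scaling, with limma voom using sample quality weights, and without saline rat 4 or METH rat 4.

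Let-7d-5p, reported for the D3 receptor, was at 7045 ± 1101 CPM in saline rats against 8252 ± 2378 CPM in METH rats (mean ± SD, n = 4 each), a log2 fold change of 0.23 ± 0.24 (SE). METH rat 4 was the highest of the 8 rats, at 11752 CPM, and the other METH rats lay at 6546 to 7676 CPM. The log2 fold change of let-7d-5p was 0.015 without METH rat 4, 0.11 without saline rat 4, 0.38 without saline rat 1 and 0.065 with library totals as the scaling. MiR-137-3p, reported for the dopamine transporter, was at 1998 ± 486 CPM in saline rats against 1968 ± 432 CPM in METH rats (mean ± SD, n = 4 each), a log2 fold change of -0.02 ± 0.25 (SE) whose sign changed with the scaling and with the rats included. Neither difference exceeded the spread between rats.

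**Figure D4:**
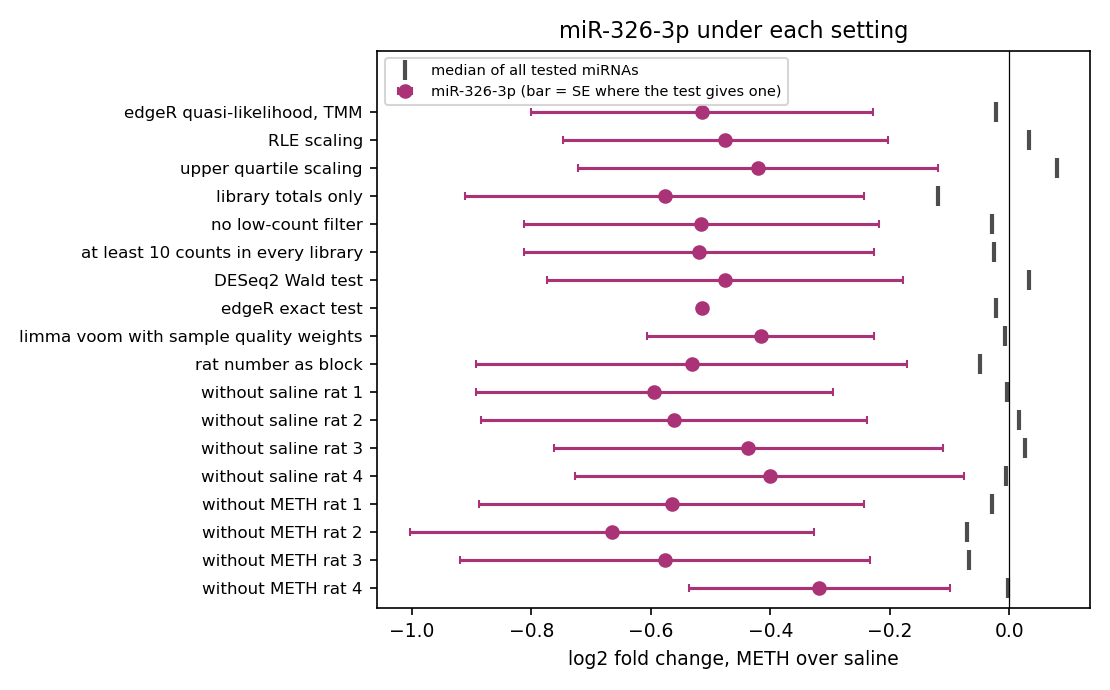
Log2 fold change of miR-326-3p (METH over saline) under each test, scaling, filter and left-out rat, with SE bars where the test gives one, and the median of all tested miRNAs as short vertical marks. All values lie between -0.67 and -0.32, and the one closest to 0 is without METH rat 4.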

How the data were processed

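The deposited values are raw counts per mature miRNA. The authors gel-purified small RNA of 5 to 40 nt, made libraries with a kit that carries unique molecular identifiers, trimmed reads with Cutadapt 1.18, aligned them to rn6 with STAR 2.7.0e and counted them with featureCounts of Subread 1.6.4. Merging of reads by identifier, the miRNA annotation and the treatment of reads with several alignments are not given in the sources used here, so intervals cover counting error only.

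Groups came from the treatment labels. Of 752 miRNAs, 507 passed filterByExpr of edgeR 4.0.16 (minimum count 10) and were compared in R 4.3.3 by the quasi-likelihood test with TMM scaling, group as the only term and Benjamini-Hochberg adjustment over all of them, at a threshold of 0.05. Standard errors are the absolute log2 fold change over the square root of F. CPM was scaled by TMM, and log2 CPM used a prior count of 2. Single measures were compared by two-sided exact permutation over 70 assignments (smallest p 0.0286). The fit was tested on simulated counts with large changes and a common dispersion. That test does not cover small differences or a library that stands apart. Alternatives used limma 3.58.1 (voom with sample quality weights, so that rats could count unequally) and DESeq2 1.42.0.

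Names in the table matched RefSeq mature sequences for 685 miRNAs, and hairpins were folded with RNAfold 2.7.2. Named are the members, seed partners, the dopamine list, the 3 nearest profiles of each member and its neighbours by level. The members and lists were chosen with earlier results of these data known.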

Additional observations from a re-analysis of the deposited data

Results flagged for a closer look

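MiR-326-3p in METH rat 4 was at 6.63 log2 CPM, while the other METH rats lay between 7.54 and 7.70. This distance to the next METH rat took 0.846 of the whole range of the group, more than the 95% limit of Dixon's test for 4 samples. Of 24 groups of 4 rats examined in this way, this was the only one past the limit, and chance gives about 1 in 20 for any rat of a group on either side. Over all tested miRNAs, METH rat 4 was apart on the low side in 28, or 5.52%, and on the high side in 18. The other 3 METH rats together were apart in 18 and the 4 saline rats together in 33. The count behind the value was 1645, so counting error was small. With library totals in place of TMM factors, the level was 75.7 CPM, against 178 to 211 CPM in the other METH rats. The raised erythrocyte and choroid plexus marker sums of this rat are given in the results, and their part in this value was not tested.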

How the results depend on the processing

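MiR-326-3p kept a negative log2 fold change and an adjusted p above 0.05 in all 9 other settings and in all 8 fits without 1 rat. Its values ran from -0.58 with library totals to -0.42 with limma voom using sample quality weights, and from -0.67 to -0.32 without 1 rat. MiR-326-5p also stayed negative with an adjusted p above 0.05, in 8 settings (-0.55 to -0.33) and without 1 rat (-0.83 to -0.089). It had no value where 10 counts were required in every library. The median log2 fold change of all tested miRNAs moved from -0.12 with library totals to 0.08 with upper quartile factors, and the difference of miR-326-3p from it ranged from -0.51 to -0.41 in the 9 settings. The count of miRNAs called was 8 with DESeq2, 6 with the edgeR exact test and between 0 and 5 without 1 rat, with the 5 found without METH rat 1. Before adjustment, 28 miRNAs had p under 0.05, with 16 to 58 in other settings and 25 to 54 without 1 rat. No seed partner or listed dopamine miRNA was called in any setting.

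With the replicate block, the log2 fold change was -0.53 for miR-326-3p and -0.55 for miR-326-5p, with 0 calls. The rat numbers are shared between groups only as numbers, and deviations of same-numbered rats had correlations of -0.36 to -0.15.

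The arm ratio difference was 0.13 with a prior count of 0.5, and from -0.59 to 0.33 without 1 rat. The seed group difference ranged from -170 to -48.6 CPM and that of miR-326-3p over miR-330-5p from -0.67 to -0.26 without 1 rat. Reversed signs were also seen for miR-137-3p, at 0.034 with RLE factors, 0.099 with upper quartile factors, 0.034 with DESeq2 and -0.14 to 0.082 without 1 rat. For miR-382-5p they were -0.10 with library totals, -0.26 with limma voom using sample quality weights and -0.22 to 0.27 without 1 rat. Let-7d-5p stayed positive, from 0.065 to 0.34 in other settings and from 0.015 to 0.38 without 1 rat. The correlation of the arms ranged from 0.29 to 0.59 in other settings and from 0.19 to 0.62 without 1 rat. MiR-9a-5p ranged from -0.0042 to 0.44 and miR-330-5p from -0.21 to 0.088 without 1 rat. The cause was not tested. The low counts of miR-326-5p limit every value that uses it. The settings planned for miR-504 were not run. The settings for miR-330-5p and its ratio, and the nearest profiles and coefficients of variation without METH rat 4, were chosen after seeing the data.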
